A study of Arabidopsis thaliana with 9 samples.

Results

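A group of 76 nuclear genes had higher transcript levels in wild-type Arabidopsis seedlings grown with the small molecule hyperphyllin than in those grown with solvent, while the level in the amp1-13 mutant stayed near that of the untreated wild type. Members were chosen by the measured values: the mean log2 signal with hyperphyllin had to lie at least 1 above that of the wild-type control (2-fold), the amp1-13 mean had to lie between -0.4 and 0.4 of it, and every hyperphyllin value had to exceed every control value. Of 13415 probe sets that name 1 nuclear gene, 481 met the first condition, 81 of these also met the second and 77 all of them. Of all probe sets, 16.7% had every hyperphyllin value above every control value. One of the 77 was left out by name, which leaves 76 members from 76 genes. Over all probe sets, named or not, 158 met the same numeric conditions, so the members are not all such probe sets on the array. Because the rule used these contrasts, the values of the members in them, calls by a test included, are a description and support nothing.

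The samples were whole Arabidopsis thaliana Col-0 seedlings, 10 days old, grown in liquid half-strength Murashige and Skoog medium with 1% sucrose at 26 °C under 16 h of light and 8 h of dark. The wild type with 1% DMSO, the wild type with 30 µM hyperphyllin in 1% DMSO, and the amp1-13 mutant with 1% DMSO contributed 3 biological replicates each, and RNA of each replicate was hybridised to an Affymetrix ATH1 array. All 3 groups therefore received DMSO, and amp1-13 seedlings grown with hyperphyllin were not analysed here. Wells held several seedlings, and nothing in the sources used here says how many seedlings made up a replicate. The AMP1 transcript was not analysed here, and amp1-13 is a single mutant allele.

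AMP1 encodes a membrane-bound protein related to glutamate carboxypeptidases that restrains leaf formation at the shoot apex, and amp1 mutants make leaves faster and contain more cytokinin. Hyperphyllin is a synthetic compound that gives wild-type seedlings an amp1-like appearance. Genes raised by the compound but near the control level in the mutant are those for which compound and mutation gave different readings in this design.

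The log2 signals ranged from 2.77 to 14.3 and array medians from 6.44 to 6.52, and 3 arrays per group limit the precision of every value. Wild-type DMSO replicate 2 stood apart from its group, with correlations over all probe sets of 0.983 and 0.987 with replicates 1 and 3, against 0.995 between those. In the whole-seedling RNA the 4 measured leaf photosynthesis markers were higher with hyperphyllin and in amp1-13 (limma adjusted p between 0.000321 and 0.00493). The log2 of their summed signal on the linear scale was 13.49 to 13.82 with DMSO, 14.38 to 14.61 with hyperphyllin and 14.54 to 14.65 in amp1-13. The genes with the highest signal weigh most in such a sum. The root hair expansin genes EXPA7 and EXPA18, the 2 measured root markers of 11 listed, had limma adjusted p-values of 0.517 and 0.652 with hyperphyllin. The log2 of their summed linear signal was 8.21 to 8.63 with DMSO, 8.38 to 8.84 with hyperphyllin and 8.36 to 9.10 in amp1-13. FMA (FAMA), the 1 measured guard cell marker of 3, had a log2 signal of 7.25 to 7.59 with DMSO, 6.40 to 6.88 with hyperphyllin and 6.35 to 6.90 in amp1-13. CLV3, the 1 measured shoot meristem marker of 3, had a log2 signal of 3.72 to 3.85 with DMSO, 3.72 to 3.76 with hyperphyllin and 3.98 to 5.04 in amp1-13. Its differences were -0.01 with hyperphyllin and 0.60 in amp1-13 (limma adjusted p = 0.975 and 0.094). The part of these shifts in the results was not tested, and in whole seedlings fewer cells of a type and less RNA per cell cannot be told apart.

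The members' rise with hyperphyllin ranged from 1.00 to 2.90 on the log2 scale, with a median of 1.35, which is 2.54-fold. It was 2 or more in 8 members, between 1.5 and 2 in 18 and under 1.5 in 50. The amp1-13 difference from the control ranged from -0.37 to 0.40 with a median of 0.17, and it was above 0 in 59 members and below 0 in 17. Both differences use the same 3 control arrays, so an array that is low in the controls raises both. In limma, fitted over all 22746 probe sets, all 76 members were called higher with hyperphyllin, where 13.3% of all probe sets were called higher, and nothing is read from this count because the rule used the contrast. Of the amp1-13 differences, 1 was called higher, that of AT2G43320 (log2 difference 0.40), where 10.1% of all probe sets were called higher. Nothing is read from this count either, since the rule capped the amp1-13 difference. AT2G43320 was singled out after its values were seen, and it also lies closest to the upper amp1-13 limit.

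**Figure D1:**
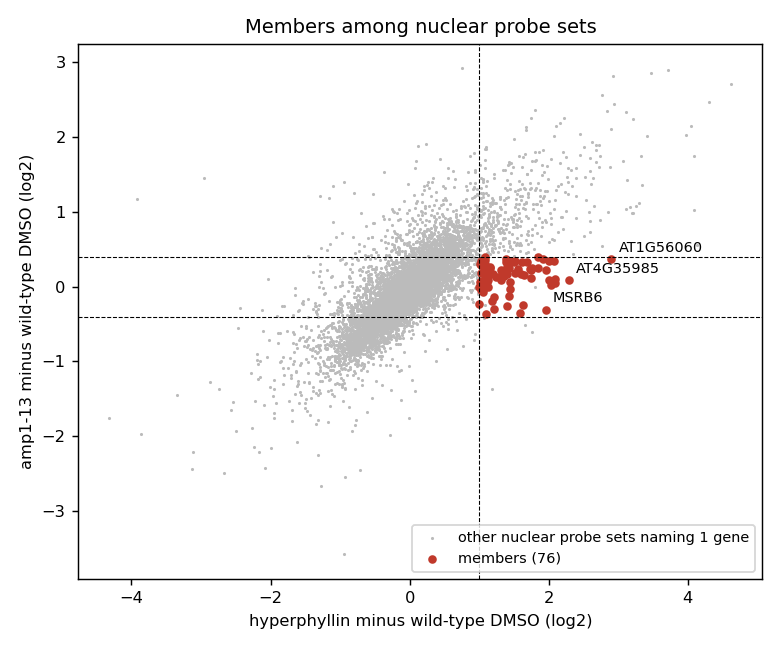
Log2 difference of amp1-13 (vertical axis) and of hyperphyllin (horizontal axis) from wild-type DMSO, group means of 3 arrays, for nuclear probe sets naming 1 gene. Red points are the 76 members, and dashed lines are the rule's limits of 1, -0.4 and 0.4. Both axes share the control arrays, and no relation is read from the slope of the grey points.

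Only 13 of the 76 members carry a descriptive name in the tables used here, and 63 have a locus tag only, for which no role is given. The genes with the largest rises are mostly among the latter. AT1G56060 had the largest rise. Its log2 signals were 5.60, 5.21 and 4.97 in wild-type DMSO replicates 1, 2 and 3, 8.65, 8.33 and 7.50 with hyperphyllin and 6.45, 5.14 and 5.27 in amp1-13, and values below are in the same order. All 3 hyperphyllin arrays were far above the controls, at a mean difference of 2.90 ± 0.38 (SE), which is 7.47-fold, and amp1-13 replicate 1 lay above the controls while the other two amp1-13 arrays lay among them. AT4G35985 had control values of 7.45, 7.04 and 7.41, hyperphyllin values of 9.74, 9.91 and 9.13 and amp1-13 values of 8.19, 6.96 and 7.00. Its rise was 4.9-fold, and again amp1-13 replicate 1 alone exceeded the controls.

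AT1G22890 had tight control values of 7.57, 7.39 and 7.41, and its hyperphyllin values were 9.65, 9.76 and 9.19. In amp1-13 it was at 8.12, 7.45 and 7.81, so the hyperphyllin values overlapped neither other group. AT3G27400 was the most uniform of the large rises. Its controls were at 6.74, 6.25 and 6.78, its hyperphyllin arrays at 8.65, 8.55 and 8.60 and its amp1-13 arrays at 6.51, 6.71 and 6.81. The difference was 2.01 ± 0.14, with an SD of only 0.05 over the hyperphyllin arrays (n = 3). AT3G43270 behaved alike, with controls at 6.52, 6.62 and 6.45 and hyperphyllin arrays at 8.22, 8.13 and 8.15. Its amp1-13 values of 6.42, 6.28 and 6.15 were all below the controls, which among the members was otherwise so only for AT2G47950, where 20.4% of all probe sets had every amp1-13 value below every control value.

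AT1G64380 rose from 5.72 ± 0.62 to 7.80 ± 0.61 (SD, n = 3), and its amp1-13 mean was 5.77 ± 0.46. AT5G05300 rose from 6.53 ± 0.65 to 8.54 ± 0.26, with amp1-13 at 6.87 ± 0.50. These 2 genes had control SDs above 0.6, larger than the median of 0.22 over the members. AT1G11960, at 5.95 ± 0.24 in controls and 7.79 ± 0.28 with hyperphyllin, and AT5G28610, at 7.05 ± 0.22 and 8.78 ± 0.28, had smaller spreads and rises of 3.58-fold and 3.31-fold. The large rises of AT1G51090 (2.03), AT3G53600 (1.96) and AT1G07160 (1.91) started from control means of 3.97, 3.33 and 3.93. These lie below 4.39, the 25th percentile of mean signal over the array, as did the control means of 13 members in all, and the sizes of their folds are uncertain.

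LTI30 (AT3G50970) encodes a dehydrin, a hydrophilic protein that builds up in cold, drought and abscisic acid treatment and shields membranes. Its log2 signals were 9.40, 8.12 and 8.78 in the controls, 11.99, 10.95 and 9.61 with hyperphyllin and 9.57, 8.64 and 8.39 in amp1-13. The mean rose 4.25-fold, but hyperphyllin replicate 3 was only slightly above the highest control, and the SD of 1.19 over the hyperphyllin arrays was the largest of all members. MSRB6 (AT4G04840) encodes a methionine sulfoxide reductase, an enzyme that repairs oxidised methionine in proteins. Its controls were at 7.80, 6.59 and 6.90, its hyperphyllin arrays at 9.61, 9.14 and 8.40 and its amp1-13 arrays at 7.37, 6.52 and 6.47. It was 3.88-fold higher with hyperphyllin, and its amp1-13 mean was -0.31 from the control on the log2 scale. Without wild-type DMSO replicate 2 that difference was -0.56, past the rule's limit.

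Neither gene was on the list of abscisic acid and drought genes, of which 15 were measured. The list was matched on names, and LEP and LCR, neither of which was called, matched only by the letters of a leaf word. With hyperphyllin 1 of the 15 was higher, the dehydrin gene COR47 (1.65-fold, limma adjusted p = 0.0299), and 4 were lower, where 13.3% and 15.6% of all probe sets were. The drought-induced gene DI21 was 4.02-fold lower (adjusted p = 0.000356), with an amp1-13 difference of -1.34. In amp1-13 4 of the 15 were lower, where 12.5% of all probe sets were.

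Among the named members, the cell wall is represented by enzymes of lignin precursors, of wall polymers and of wall oxidation. BGLU45 (AT1G61810) and BGLU46 (AT1G61820) encode beta-glucosidases that release monolignols, the building blocks of lignin, from their glucosides. BGLU45 was at 4.80, 4.34 and 4.41 in the controls, 6.79, 6.30 and 5.38 with hyperphyllin and 4.79, 4.65 and 4.58 in amp1-13, a rise of 3.12-fold. BGLU46 was at 6.87, 6.85 and 7.17 in the controls, 8.72, 8.84 and 8.16 with hyperphyllin and 7.67, 7.12 and 7.09 in amp1-13, a rise of 3.06-fold. In both genes the hyperphyllin arrays were above all other arrays, and replicate 3 was the lowest of them. PRX25 (AT2G41480), a secreted class III peroxidase, was at 5.72, 5.24 and 5.44 in the controls, 7.16, 6.46 and 6.51 with hyperphyllin and 5.89, 5.71 and 5.20 in amp1-13, a rise of 2.36-fold. CSLD2 (AT5G16910), a cellulose synthase-like protein that acts in tip growth of root hairs, rose 2.22-fold, from 8.36 ± 0.39 to 9.52 ± 0.36, with amp1-13 at 8.62 ± 0.23. Without wild-type DMSO replicate 2 the amp1-13 difference of CSLD2 was 0.46, which no longer met the rule.

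A list of 42 measured wall genes (expansins, xyloglucan and pectin enzymes, cellulose synthase-like proteins) included CSLD2. With hyperphyllin 11 of the 42 were called higher and 5 lower, where 13.3% and 15.6% of all probe sets were, or 28.9% in either direction, with a median log2 difference of 0.07 against -0.05 over all genes. In amp1-13, 9 were higher and 8 were lower, where 10.1% and 12.5% of all probe sets were, or 22.5% in either direction. The pectin methylesterase gene ATPMEPCRB rose 17-fold with hyperphyllin (limma adjusted p = 7.95e-05) and had an amp1-13 difference of 1.75 (adjusted p = 0.00394). The expansin-like gene EXLA1 rose 6.41-fold (adjusted p = 0.000371), with an amp1-13 difference of 1.67, and XTH18, which encodes a xyloglucan-modifying enzyme, rose 3.9-fold (adjusted p = 0.000694), with an amp1-13 difference of 0.86. EXPA8, an expansin gene, was 3.07-fold lower with hyperphyllin (adjusted p = 0.000543). Of the 16 genes on this list called with hyperphyllin, CSLD2 alone met the rule for members. Its call was fixed by that rule, as are those of the members in the lists below. The list was matched on names, so any wall genes among the members with only a locus tag would not be on it. A list of 19 peroxidase, thioredoxin and glutaredoxin genes holds PRX25. It was matched on names too, so it does not show whether members with only a locus tag belong to these families. With hyperphyllin 7 of the 19 were higher, PRX25 included, and 6 were lower. AT5G64120, the gene of peroxidase 71, rose 3.95-fold (adjusted p = 0.000124) with an amp1-13 difference of 1.61.

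Enzymes that conjugate small molecules gave 2 of the named members. UGT76B1 (AT3G11340) encodes a glucosyltransferase that attaches glucose to immune signal molecules, salicylic acid among them. Its values were 6.99, 7.48 and 7.42 in the controls, 8.89, 8.62 and 7.86 with hyperphyllin and 7.88, 7.38 and 7.43 in amp1-13. The rise was 2.23-fold, and the lowest hyperphyllin array was just below the highest amp1-13 array. GSTU22 (AT1G78340) encodes a tau-class glutathione transferase, of a family that conjugates glutathione to foreign and toxic compounds. It was at 5.00, 4.64 and 4.97 in the controls, 6.50, 5.62 and 5.59 with hyperphyllin and 4.79, 5.01 and 4.69 in amp1-13. Its 2.05-fold rise was largest in replicate 1, and without wild-type DMSO replicate 2 it was 0.92 on the log2 scale, under the rule's minimum.

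The genes of the 2 families that were matched on names and measured moved in both directions, and these are not the whole families. Of 52 measured UDP-glycosyltransferase genes 12 were higher and 9 were lower with hyperphyllin (28.9% of all probe sets called), with a median log2 difference of -0.05, and the member UGT76B1 is 1 of the 12. UGT73B1 rose 2.97-fold (limma adjusted p = 0.000344), with an amp1-13 difference of 1.74, and UGT76C2, a cytokinin glucosyltransferase gene, rose 1.64-fold (adjusted p = 0.00837), with an amp1-13 difference of 0.56. UGT85A5 and UGT72B3 were 2.54-fold and 2.33-fold lower (adjusted p = 0.00025 and 0.000353). Of 13 glutathione transferase genes 2 were higher, the member GSTU22, chosen for its rise, and GSTU18 (adjusted p = 0.00584), and 5 were lower, with a median of -0.35. GSTU16 was 2.98-fold lower (adjusted p = 0.00058).

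No member was on the lists of stress genes, most of which were not analysed here because no probe set was matched to them alone. Of all probe sets, 13.3% were called higher and 15.6% lower with hyperphyllin, and 10.1% higher in amp1-13. Of 10 early touch and wound genes 2 were measured, and 1 was called higher with hyperphyllin and 1 in amp1-13. Of 5 mitochondrial stress genes 3 were measured, and 1 was called lower with hyperphyllin. The 1 measured gene of the unfolded protein response was called higher with hyperphyllin, and the 1 measured heat shock gene was not called in either comparison. No gene of the salicylic acid, jasmonate, camalexin and xenobiotic response lists was analysed here. Of 7 measured genes matched on names as WRKY factors, regulators of defence, 3 were higher with hyperphyllin and 2 in amp1-13.

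Named members outside these groups have roles in signalling, metabolism and the cytoskeleton. NAMT1 (AT5G04370), a nicotinate methyltransferase gene, was at 3.94, 3.93 and 4.00 in the controls, 5.71, 5.29 and 5.18 with hyperphyllin and 4.30, 3.78 and 3.71 in amp1-13. Its controls were near the low end of the array's range, so its 2.71-fold rise is uncertain in size. IQD22 (AT4G23060), of a family of calmodulin-binding scaffold proteins, had controls at 6.27, 5.99 and 6.14, hyperphyllin arrays at 7.55, 7.80 and 7.53 and amp1-13 arrays at 6.78, 6.12 and 6.48. It rose 2.82-fold with a similar level in all 3 hyperphyllin arrays. PTI1-4 (AT2G47060), a protein kinase gene related to tomato Pti1 of disease resistance signalling, was at 8.15, 8.67 and 8.31, 9.55, 9.51 and 9.45 and 9.03, 8.30 and 8.54 in the 3 groups, a rise of 2.18-fold. KICP-02 (AT3G50240), a kinesin-like gene, rose 2.13-fold, from 5.61 ± 0.09 to 6.70 ± 0.17, with amp1-13 at 5.76 ± 0.24. MCCA (AT1G03090), of leucine breakdown, rose 2.12-fold, from 7.85 ± 0.19 to 8.94 ± 0.48, and its 3 amp1-13 values were identical to 4 decimals at 8.20.

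**Figure D2:**
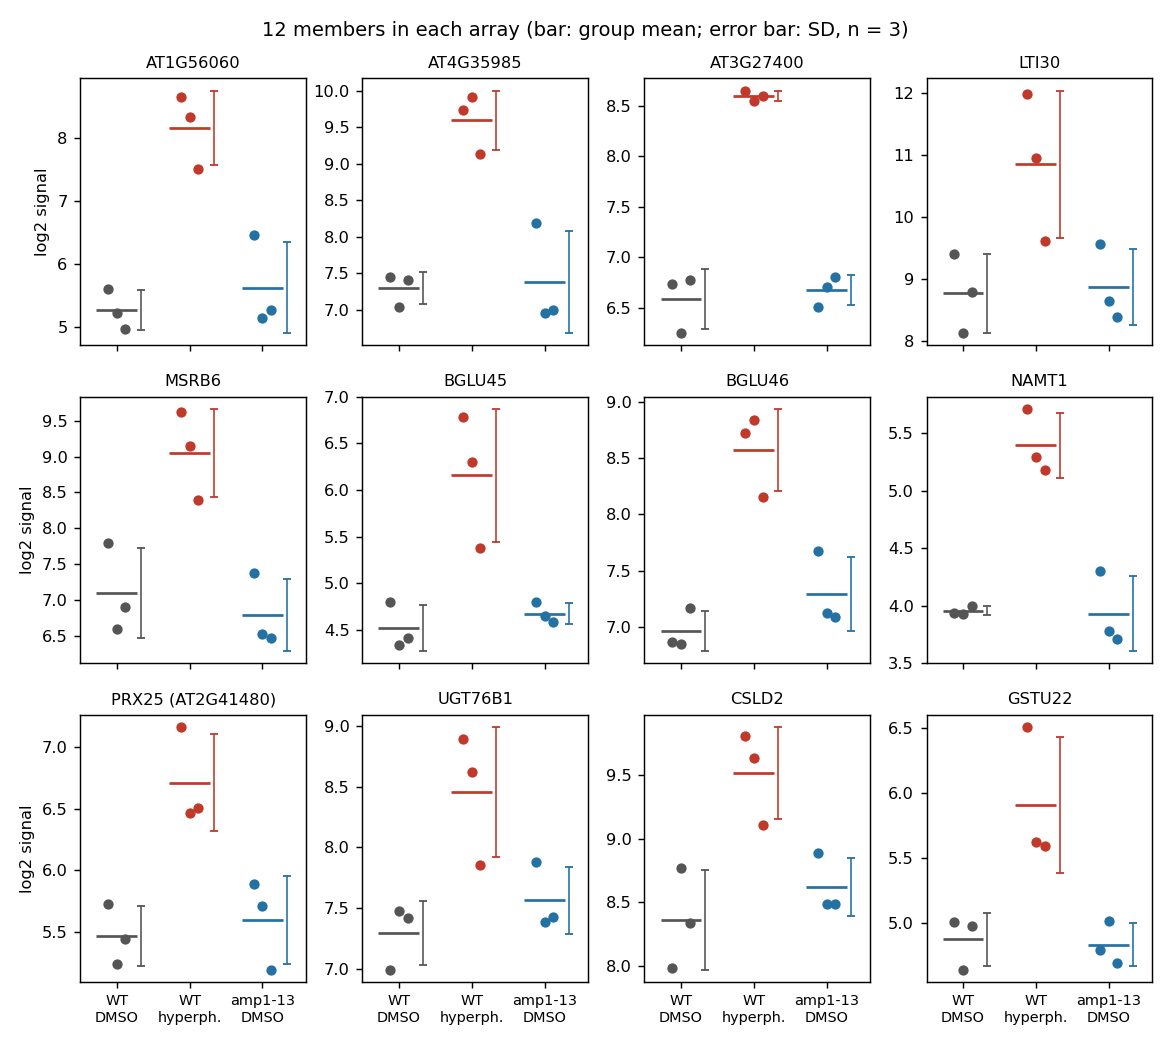
Log2 signal of 12 members in each array, with group means as horizontal bars and SD error bars (n = 3), and replicates 1 to 3 from left to right in each group. The hyperphyllin points lie above all control points in every panel, as the rule requires, and amp1-13 replicate 1 is the highest amp1-13 point in 10 of the 12 panels.

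The members were spread over the 5 nuclear chromosomes, with 23 on chromosome 1, 15 on chromosome 2, 12 on chromosome 3, 12 on chromosome 4 and 14 on chromosome 5. The shares of all nuclear probe sets on each chromosome were not counted. Gene order, which the rule did not use, placed some members close together. How often other measured genes lie so close was not counted, so nothing is read from this. BGLU45 and BGLU46 are adjacent on chromosome 1. AT1G61840, beyond BGLU46, had a hyperphyllin difference of 0.98, just under the minimum, and values of 6.16, 4.90 and 4.37 with hyperphyllin against 4.08, 4.22 and 4.20 in the controls, so replicate 1 was far above the other two. On chromosome 4, AT4G15690 and AT4G15700 are adjacent, and AT4G15660 lies before them with 2 genes between.

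AT4G15690 was at 5.60, 5.08 and 4.89 in the controls, 7.06, 6.47 and 7.28 with hyperphyllin and 5.60, 5.52 and 5.12 in amp1-13. AT4G15700 was at 4.57, 3.80 and 3.61, 5.68, 5.42 and 6.14 and 4.48, 4.14 and 4.11, and AT4G15660 at 4.17, 3.27 and 3.71, 5.23, 4.63 and 5.51 and 4.01, 3.84 and 3.81. All 3 had their highest hyperphyllin value in replicate 3 and their lowest in replicate 2, and their highest control value in replicate 1. Between them, AT4G15680 was at 7.54, 5.99 and 6.37 in the controls and 7.38, 7.08 and 7.50 with hyperphyllin. It showed the same order of the arrays, but its groups overlapped, and its difference of 0.69 was under the minimum. The flanking genes AT4G15650 and AT4G15710 had differences of 0.09 and -0.54. The order of hyperphyllin arrays seen in this cluster was found in 5 of the 76 members. Over all probe sets without tied values, replicate 3 was the highest hyperphyllin array in 43.9% and replicate 2 the lowest in 34.3%. Among the members these shares were 9.21% and 14.5%, and the share of all probe sets with both was not counted. The others of the 5 were AT2G01610 and AT5G18600 on chromosome 5, the latter at 7.96, 5.42 and 6.74 in the controls and 8.72, 8.04 and 8.88 with hyperphyllin. AT5G18600 had the smallest gap of all members, 0.08 between its lowest hyperphyllin and highest control value, and the largest control SD, 1.27 (n = 3). Genes of nearly identical sequence could share hybridisation signal, which was not tested, though none of the 76 probe sets carries the suffix that marks possible cross-hybridisation.

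**Figure D3:**
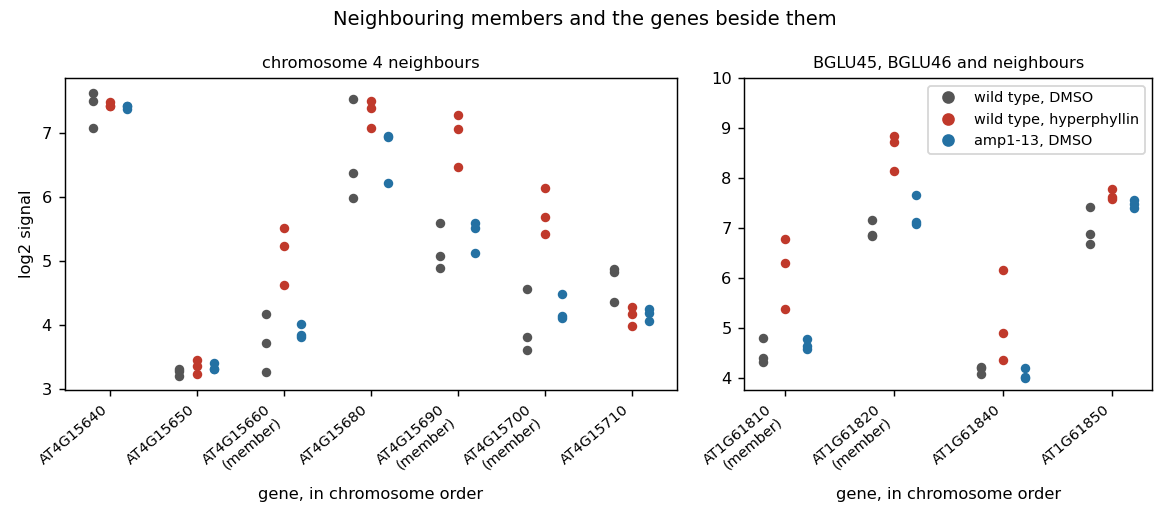
Log2 signal in the 9 arrays for members that neighbour each other and for measured genes beside them, in chromosome order along the horizontal axis. AT4G15660, AT4G15690 and AT4G15700 are separated between hyperphyllin and the other groups, while AT4G15640 and AT4G15650 lie at the same level in all groups.

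The members did not respond evenly in the 3 hyperphyllin cultures. Relative to the control mean, the median member was 1.52 higher in hyperphyllin replicate 1, 1.36 in replicate 2 and 1.01 in replicate 3 on the log2 scale. Replicate 1 was the highest hyperphyllin array in 46 members, or 60.5%, and replicate 3 the lowest in 54, or 71.1%. Over all probe sets without tied values, replicate 1 was the highest in 30.3% and replicate 3 the lowest in 28.3%. A set of 385 other genes met the same hyperphyllin conditions with an amp1-13 difference above 0.4. Among those without tied values, replicate 1 was the highest in 41.6% and replicate 3 the lowest in 58.1%. Replicate 1 was highest and replicate 3 lowest at once in 40 members, among them the 8 with an SD over 0.8. AT2G47950, with hyperphyllin values of 8.82, 8.17 and 6.57 over controls of 6.39, 6.12 and 6.28, and AT1G74010, with 8.31, 7.25 and 6.74 over 5.99, 5.82 and 5.79, were of this kind. AT2G16900 had hyperphyllin values of 10.23, 9.26 and 8.46 over controls of 7.75, 7.59 and 7.54, and AT1G57630 had 6.43, 5.67 and 4.65 over 4.25, 4.24 and 4.13. In all 4 genes hyperphyllin replicate 3 lay closest to the controls without overlapping them. In 14 members the highest was replicate 2 and the lowest replicate 3, and in 9 the highest was replicate 2 and the lowest replicate 1. The latter included AT1G07160, with 5.17, 6.40 and 5.95. The shares of all probe sets with these orders of arrays, that of the 40 members included, were not counted.

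**Figure D4:**
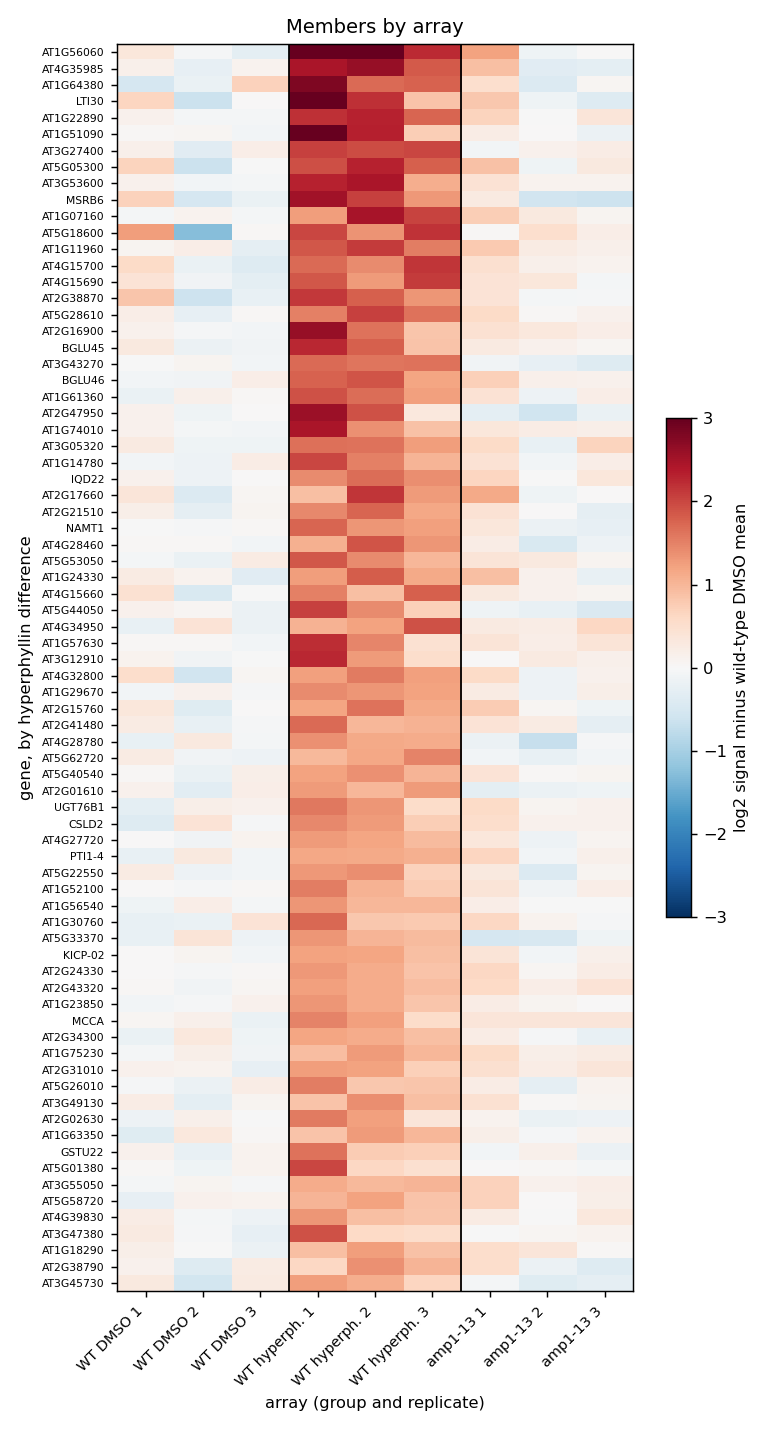
Log2 signal minus the wild-type DMSO mean (colour) for the 76 members, in rows by decreasing hyperphyllin difference, in each of the 9 arrays. Colours stop at 3 in either direction. The 3 hyperphyllin columns are red throughout, paler in replicate 3 for many members, and amp1-13 replicate 1 is more often red than replicates 2 and 3.

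Spread between replicates was larger with hyperphyllin than with DMSO in 53 of the 76 members. The median SD was 0.37 over the hyperphyllin arrays and 0.22 over the control arrays, where over all probe sets these medians were 0.11 and 0.16. Over the 385 other raised genes they were 0.31 and 0.27. Only AT3G27400, AT3G43270, PTI1-4 and AT3G55050, picked out after their values were seen, had an SD under 0.1 with hyperphyllin. The shares of all probe sets for these counts of members were not counted. Nothing is read from the counts, since the rule's condition on overlap acts on the spread of both groups.

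In amp1-13 the members' nearness to the control differed between arrays. The median member lay 0.41 above the control mean in amp1-13 replicate 1, against 0.01 in replicate 2 and 0.09 in replicate 3. Replicate 1 was the highest amp1-13 array in 60 of the 74 members without tied values, or 81.1%, where it was so in 32.9% of all probe sets without ties. In 27 members amp1-13 replicate 1 exceeded every control value while replicates 2 and 3 did not. Nothing is read from this count, since the rule capped the amp1-13 mean and the share over all probe sets was not counted. Among the 385 genes with the higher amp1-13 level, replicate 1 was the highest in 84.1%, and the medians were 1.31, 0.84 and 0.90 in amp1-13 replicates 1, 2 and 3. In 9 members every amp1-13 value was above every control value, where 14.9% of all probe sets were so. In 2 members every amp1-13 value was below every control value, where 20.4% of all probe sets were so. In the other 65 the amp1-13 and control ranges overlapped. Nothing is read from these counts, since the rule capped the amp1-13 mean. AT2G16900, AT1G74010 and AT1G57630 are among those 9.

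**Figure D5:**
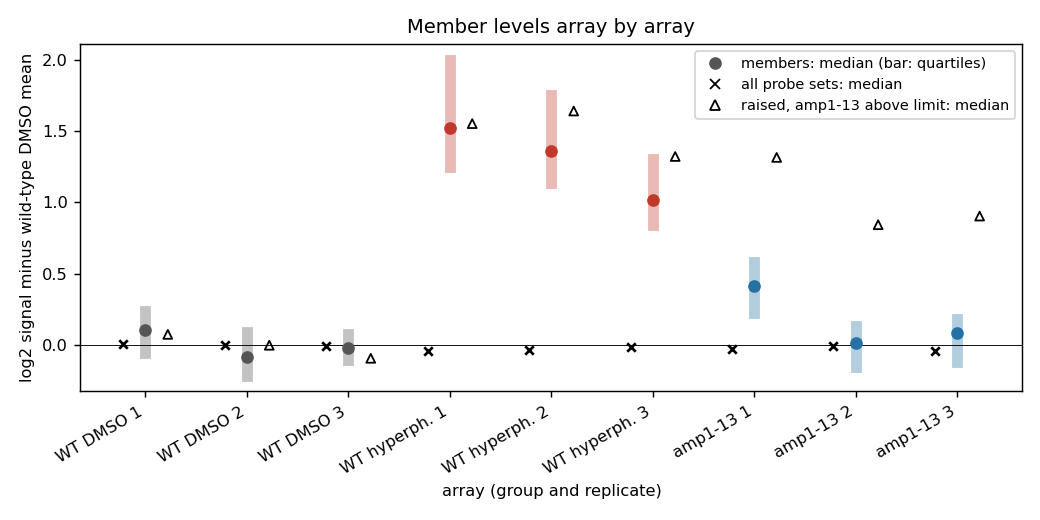
Median log2 signal minus the wild-type DMSO mean in each array for the 76 members (points, with bars from the lower to the upper quartile), for all probe sets (crosses) and for the 385 genes raised with hyperphyllin whose amp1-13 difference was above 0.4 (triangles). The members' median falls from 1.52 to 1.01 between hyperphyllin replicates 1 and 3 and is 0.41 in amp1-13 replicate 1 against 0.01 and 0.09 in the other two.

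Set directly against amp1-13, the hyperphyllin arrays were higher by 0.69 to 2.54 on the log2 scale, with a median of 1.17. Every hyperphyllin value exceeded every amp1-13 value in 74 members, where this was so for 14.3% of all probe sets. The exceptions were UGT76B1 and AT2G17660, which had hyperphyllin values of 5.07, 6.31 and 5.45 and amp1-13 values of 5.30, 4.02 and 4.18. In limma 63 of the 76 were called higher with hyperphyllin than in amp1-13, where 2.98% of all probe sets were called higher. The rule fixes most of this difference, so the counts are a description. The count of 63 was 38 without wild-type hyperphyllin replicate 2, 27 without amp1-13 DMSO replicate 2 and 34 without amp1-13 DMSO replicate 3. Over all probe sets, 251, 197 and 304 were called higher in the same fits, against 677 with all arrays. LTI30, AT5G18600, CSLD2, MCCA and UGT76B1 were among the 13 members not called.

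The members' control signal had a median of 6.20 and ranged from 3.33 in AT3G53600 to 10.97 in AT1G29670. The median was 6.03 over all nuclear probe sets naming 1 gene and 6.98 over the 385 raised genes with a higher amp1-13 level. The rule set no limit on the control level itself but used the control values. Nothing is therefore read from this comparison. Signals of different probe sets do not rank transcript levels. At the high end of signal, AT1G29670 was at 10.88, 11.09 and 10.94 in the controls, 12.39, 12.29 and 12.18 with hyperphyllin and 11.21, 10.82 and 11.15 in amp1-13. It rose 2.49-fold. AT2G38870 rose 3.34-fold, from 9.64 ± 0.74 to 11.38 ± 0.41, while AT2G34300 and AT1G52100 rose 2.09-fold and 2.16-fold from control means of 9.57 and 9.34. At the low end of signal, AT3G12910, AT1G56540, AT4G15660 and AT5G01380 had control means between 3.61 and 3.75. One member, AT2G31010, has a second probe set, which gave hyperphyllin and amp1-13 differences of 0.22 and -0.21, where the member probe set gave 1.06 and 0.35, so the 2 probe sets disagree on the size of the hyperphyllin difference and on the direction of the amp1-13 difference. In the second probe set the hyperphyllin and control ranges overlapped.

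Membership near the limits is a matter of small differences. Just inside the minimum lay AT3G45730 (1.00), AT2G38790 (1.00), AT1G18290 (1.01) and AT3G47380 (1.01), and just outside it AT3G18560 (0.99), the sugar transporter gene SWEET2 (0.99), AT3G16560 (0.98) and AT2G37870 (0.98). On the upper amp1-13 side, AT2G43320 (0.40) and AT1G11960 (0.39) lay inside and AT3G46110 (0.41) and AT1G11670 (0.43) outside. On the lower side, AT5G33370 (-0.37) and AT2G47950 (-0.36) lay inside and AT2G16005 (-0.42) and AT4G39320 (-0.51) outside. JRG21 had a hyperphyllin difference of 1.81 and an amp1-13 difference of -0.01 but was no member, because its groups overlapped. Without wild-type DMSO replicate 1, 53 of the 76 still met the rule and 21 other genes joined, the fewest kept when any 1 array was left out. Without wild-type DMSO replicate 2, 58 still met the rule and 17 other genes joined. Of the 18 that dropped out without replicate 2, 9 fell under the minimum rise, 7 passed the upper amp1-13 limit and 3 the lower one, with AT3G45730 counted under both the first and the last. Without amp1-13 replicate 1, 74 of the 76 still met the rule, and 33 other genes joined.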

How the data were processed

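RNA was measured on 9 arrays, and the authors deposited log2 signal values per probe set. The submitters' processing notes name RMA as the tool, without a version. RMA corrects background and equalises the arrays' distributions, so shifts of most genes together are removed. That the scale is log2 follows from RMA and the range of the values, which were used as deposited, with no filter. Of 22746 probe sets other than controls, 13513 name 1 gene in the platform table, 503 several and 8730 were not named here. Of the 13513, 13436 matched a reference gene table (TAIR10.1), used for symbols and gene order.

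Groups came from the sample titles. limma 3.58.1 in R 4.3.3 was fitted with 1 mean per group over the 9 arrays (6 residual degrees of freedom), and its two-sided p-values were adjusted by the Benjamini-Hochberg method across 22746 probe sets. A call is an adjusted p under 0.05. The fit was tested on simulated data. SEs come from this fit. Arrays give no count depth, and p-values measure only the spread between these replicates.

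Members and lists were chosen with earlier results of these data known. Genes were named by rank of change, family, closeness to a limit, signal level, spread and second probe sets. IQD22, NAMT1, PTI1-4, KICP-02 and MCCA, which carry a name, genes neighbouring members and those in counts of 5 or fewer were added after their values were seen. Families were matched on symbols and synonyms. A pattern that matched methionine as thionin was corrected. Alternatives are given in the closing section.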

Additional observations from a re-analysis of the deposited data

How the results depend on the processing

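The 76 hyperphyllin differences were recomputed under 9 settings (quantile normalization, centring, the replicate block and each wild-type array left out). Of these 684 values 0 were below 0, the lowest was 0.55 and 65 were under 1. With a wild-type array left out no difference could be below 0, since the rule required every hyperphyllin value to exceed every control value. The replicate block does not change a difference of group means in this balanced design. Nothing is therefore read from the absence of values below 0. The rule gave 71 genes after quantile normalization, 66 after centring on array medians, 131 with a minimum of 0.8 and 36 with amp1-13 limits of 0.2, and 62 to 112 with 1 array left out, when 53 to 75 of the 76 still met it. Members called higher numbered 67 to 74 against wild-type DMSO and 27 to 67 against amp1-13 with 1 array left out. In the same fits 1921 to 4422 and 197 to 1094 of all 22746 probe sets were called higher. Nothing is read from the member counts, because the rule used these contrasts. Over all probe sets, array weights moved the calls from 6567 to 10485 for hyperphyllin against wild-type DMSO, from 5124 to 9363 for amp1-13 and from 1439 to 3423 for hyperphyllin against amp1-13. With 1 array left out they ranged from 3881 (wild-type DMSO replicate 3) to 8869, from 2545 (wild-type DMSO replicate 3) to 7942 (wild-type DMSO replicate 2) and from 506 (amp1-13 DMSO replicate 2) to 2227 (wild-type DMSO replicate 2). The first was 4246 without wild-type hyperphyllin replicate 2. The second was 3277 if wild-type DMSO replicate 1 was left out, and 2995 and 2929 if amp1-13 replicate 1 or 2 was. The third was 893, 612 and 720 without wild-type hyperphyllin replicates 1 and 2 and amp1-13 DMSO replicate 3. The cause was not tested. Same-numbered arrays of different groups correlated between -0.20 and 0.23 in their deviations, so the numbers were not taken as pairs. With the replicate block the calls were 6275, 4869 and 1338. With the block 76 and 64 members were called higher against wild-type DMSO and amp1-13, where 2892 and 643 of all probe sets were. Promoter motif shares were not run.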
